A study of Bos taurus with 5 samples.

Results

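The voltage-dependent anion channels (VDACs) are the pores of the outer mitochondrial membrane, and they were examined here as the genes named VDAC1, VDAC2 or VDAC3 in a table of transcript levels. Of these 3 genes, 2 had rows, VDAC3 with 1 transcript and VDAC1 with 2, among 9022 genes and 13391 transcripts in all. VDAC2 was not analysed here. The study sequenced total RNA from longissimus dorsi, a long muscle along the back, of 5 cattle of the Jiaxian Red breed aged 18 months, with 1 library per animal and no treatment or genotype stated. The 5 libraries formed 1 group, so nothing could be compared between conditions, and each gene was set beside others within the same library. The series aimed to find genes that bear on muscle development, and POLB, the gene of a DNA repair polymerase, stands in its title. Values were FPKM, a fragment count divided by the length of the transcript and the size of the library, and transcripts of a gene were summed. VDAC3 was selected on its FPKM values, which were already known to differ widely between these libraries, so its levels are a description and carry no test.

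VDACs are beta barrels that let ADP, ATP, phosphate, other metabolites and ions pass between the cytosol and the space between the mitochondrial membranes. Hexokinases dock on them, and so bind near the ATP leaving mitochondria, and members of the BCL2 family meet them in the same membrane. VDAC1 is usually the most abundant form. VDAC3 is the least understood, is rich in cysteines, and in mice is needed for sperm motility. In muscle fibres these channels lie between the inner membrane carriers that export ATP and the myofibrils that consume it.

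Markers of the labelled tissue were abundant. All 11 listed of 14 muscle fibre genes averaged at least 1 FPKM, and their summed level ran from 23087 to 26215 FPKM over the libraries. Summed levels of other cell types were lower, at 394 to 845 FPKM for 3 listed fibroblast genes, 89.8 to 103 for 6 endothelial genes, 36.5 to 88.7 for 5 smooth muscle and pericyte genes and 3.05 to 7.68 for 3 leukocyte genes. Of the adipocyte list 1 gene, CIDEC, was listed, at no more than 0.809 FPKM and at 0 in library 5, and of the erythrocyte list the globin gene HBB, at no more than 3.09 FPKM. The summed FPKM of all genes was 193706 to 223251 per library, and read depth is unknown because no counts were given. In bulk muscle, fewer cells of a type and less RNA per cell cannot be told apart.

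VDAC3 varied more between these libraries than nearly any other abundant gene. Its level was 13.7, 56.3, 194.5, 192.9 and 67.2 FPKM in libraries 1 to 5. Libraries 3 and 4 were high and nearly equal, libraries 2 and 5 lay between, and library 1 was far below the rest. The mean was 104.9 ± 83.5 FPKM (SD, n = 5), the highest value was 14.2 times the lowest, and without library 1 that range was 3.45-fold. VDAC3 ranked 207 by mean among the 6136 genes that averaged at least 1 FPKM, above 96.6% of them.

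VDAC1 was steady in the same libraries. Libraries 1 to 5 held 140.9, 157.8, 172.5, 182.5 and 172.8 FPKM, with a mean of 165.3 ± 16.2 FPKM (SD, n = 5). Library 1 was again the lowest and library 4 the highest, but the whole range was 1.30-fold. VDAC1 ranked 139 by mean, above 97.7% of the 6136 genes.

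**Figure D1:**
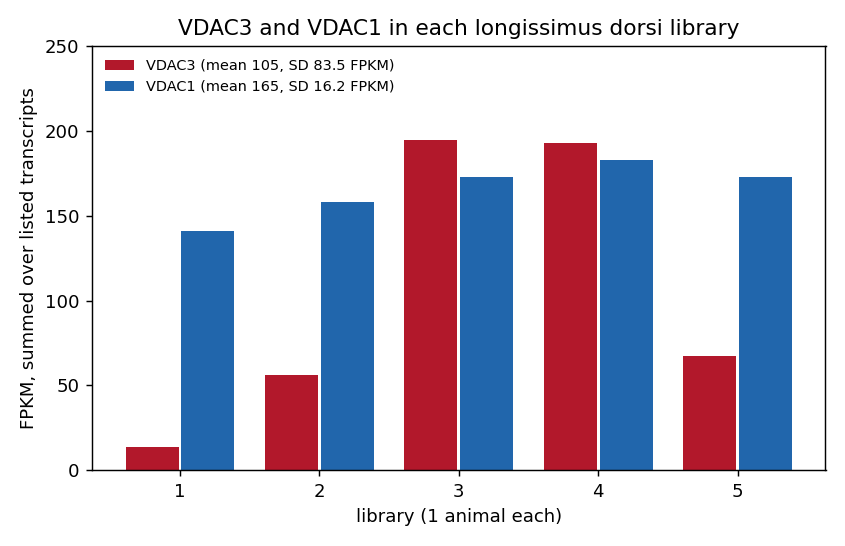
Bars give the FPKM of VDAC3 (red, left) and VDAC1 (blue, right) in each of the 5 libraries, summed over listed transcripts and starting at 0. VDAC3 runs from 13.7 to 194.5 FPKM and VDAC1 from 140.9 to 182.5, with VDAC3 the higher bar in libraries 3 and 4.

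Because VDAC1 held its level, the ratio of VDAC3 to VDAC1 RNA differed from library to library. The VDAC3 value is that of 1 transcript, VDAC2 is left out, and RNA does not give the level of channel protein. VDAC3 made up 8.84% of the summed VDAC3 and VDAC1 level in library 1, and 26.3%, 53.0%, 51.4% and 27.99% in libraries 2 to 5. VDAC3 was thus higher than VDAC1 in 2 animals, by 1.13-fold in library 3 and 1.06-fold in library 4. It was lower in the other 3, with VDAC1 at 10.3 times VDAC3 in library 1, 2.80 times in library 2 and 2.57 times in library 5. The log2 ratio of VDAC3 over VDAC1, of FPKM + 1, averaged -1.17 ± 1.41 (SD, n = 5) and -0.64 without library 1, so the spread between libraries exceeded the mean difference. The summed level of both channels was 154.6, 214.1, 367.1, 375.4 and 239.97 FPKM in libraries 1 to 5.

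At the transcript level only VDAC1 could be split into forms, because VDAC3 had a row for 1 transcript. That transcript, VDAC3-203, was placed on chromosome 27 from 37237546 to 37246636, within gene ENSBTAG00000014068. Forms numbered 201 and 202 were not analysed here, so the VDAC3 values describe 1 transcript and may not be the whole gene. For VDAC1, ENSBTAG00000013113, the form VDAC1-202 on chromosome 7 from 45663911 to 45689629 held 99.88% to 99.99% of the level in every library. VDAC1-201, which spans 45663905 to 45696087, stayed at 0.206 FPKM or below. The build of these coordinates is not certain: the submitters' processing notes name UMD3.1, and the positions are printed as deposited.

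On the log2(FPKM + 1) scale the SD over libraries was 1.54 for VDAC3 and 0.15 for VDAC1, beside a median of 0.25 over the 6136 genes. Without library 1 the SD of VDAC3 was 0.95, and 96.0% of detected genes had a smaller one, against 99.2% over all 5 libraries. With a pseudocount of 0.1 in place of 1 the share was 95.2%. An SD at or above that of VDAC3 was found for 51 of the other 6135 genes (0.831%), and an SD of at least 1 for 222 (3.62%). Among the 446 genes averaging at least 50 FPKM, VDAC3 had the third greatest SD and VDAC1 ranked 383. The only ones above VDAC3 there were COX6A2, the heart and muscle form of a cytochrome c oxidase subunit, with 1.72, and a gene without a symbol, with 1.63. The myoglobin gene MB, with 1.12, followed. MB was high in library 5, at 766.4 FPKM, where VDAC3 was at 67.2.

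Over all detected genes, wide spread was more common where the table lists a single, later-numbered transcript, as it does for VDAC3. Of 721 such genes with a mean of at least 1 FPKM, 74 (10.3%) had an SD of at least 1, against 61 of 2355 (2.59%) whose single listed transcript was numbered 201. VDAC3 was among 22 of those 721 genes with an SD as great as its own, and 10 of the 2355 reached it. Among genes averaging at least 50 FPKM, 2 of 24 later-numbered genes (8.33%) had an SD of at least 1, VDAC3 itself and MB. For those numbered 201 it was 2 of 194 (1.03%). The median SDs of these 2 sets were alike, at 0.271 and 0.276, so at the level of VDAC3 the contrast rests on few genes. The part of transcript listing in the VDAC3 values was not tested. Mammalian genomes also hold processed copies of VDAC genes, and the sources used here do not say how reads shared with such copies were assigned.

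**Figure D2:**
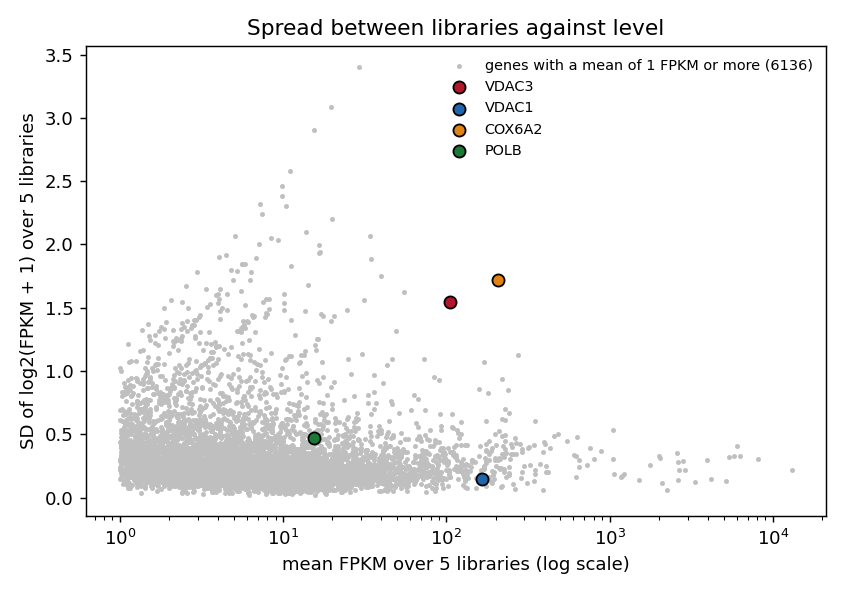
Each grey point is 1 of 6136 genes, with its mean FPKM on a log axis and the SD of log2(FPKM + 1) over 5 libraries. VDAC3 (SD 1.54) and COX6A2 (SD 1.72) lie far above genes of like level, VDAC1 (SD 0.15) lies under the median of 0.25 and POLB has an SD of 0.47.

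Partners of the channel were taken from lists of genes of the same membrane, of the carriers and kinases that use it, and of mitochondrial energy supply. Over these lists 90 genes other than VDAC3 had rows, of which 41 lay below VDAC3 in every library and 7 above it in every library. For all 9021 other genes these shares were 82.4% and 1.12%. The other 42 partners changed sides between animals. Without library 1, where VDAC3 was lowest, 59 lay below it in every other library. Without library 3, where VDAC3 was highest, 11 lay above it in every other library.

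Genes that build and insert beta barrels were mostly well below VDAC3, as most other genes were. TOMM70, an import receptor of the outer membrane, was at 48.4, 49.0, 59.1, 66.7 and 52.7 FPKM in libraries 1 to 5. VDAC3 was higher than TOMM70 in 4 animals and lower in library 1, with a mean log2 ratio of 0.40 ± 1.38 (SD, n = 5). DNAJC11, which is linked to the organising complexes of the mitochondrial membranes, averaged 15.5 ± 2.29 FPKM and was passed by VDAC3 in the same 4 animals. The small chaperone gene TIMM10 and the metaxin gene MTX3 averaged 3.89 ± 3.93 and 3.40 ± 0.725 FPKM, under VDAC3 in 5 of 5. Of 7 listed members 5 lay below VDAC3 in every library and none above it, beside 82.4% and 1.12% of all other genes. Over the 4 that averaged 1 FPKM the median log2 ratio was 3.12, against 3.37 over all genes. SAMM50, the core of the machinery that inserts barrels, was listed by a single transcript at 0.671 FPKM or less, and TOMM40 was not analysed here.

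The inner membrane carriers differed in level by more than 10-fold. SLC25A3, which carries phosphate into the matrix, was at 166.4, 176.2, 225.9, 210.3 and 189.3 FPKM in libraries 1 to 5. VDAC3 was lower than SLC25A3 in 5 of 5 animals, by -1.39 ± 1.37 on the log2 scale (SD, n = 5), and in libraries 3 and 4 the ratio was -0.21 and -0.12. SLC25A25, a calcium-regulated carrier of ATP, averaged 16.7 ± 3.18 FPKM and was below VDAC3 in 4 of 5. The ADP/ATP exchangers SLC25A4, SLC25A5 and SLC25A6 were not analysed here.

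Among the kinases that use exported ATP, HK1, the hexokinase of most tissues, averaged 4.66 ± 0.533 FPKM, and GK, glycerol kinase, 2.62 ± 0.998. HK2, the main hexokinase of muscle, averaged 0.877 ± 0.559 FPKM. All 3 lay below VDAC3 in 5 of 5 animals as did 82.4% of all other genes, and for each the table skips transcript numbers, so a sum can miss part of the gene. Over the 3 list members that averaged 1 FPKM the median log2 ratio was 3.71, against 3.37 over all genes. The muscle creatine kinase gene CKM was at 35.5, 14.9, 18.5, 9.67 and 2.50 FPKM in libraries 1 to 5. CKM was thus highest where VDAC3 was lowest, and its log2 SD of 1.26 was the greatest in this list.

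The listed apoptosis regulators of the outer membrane were all under VDAC3, as were most other genes. The greatest SD of the 3 that averaged 1 FPKM was 0.32. BCL2L13, an outer membrane member of the BCL2 family, averaged 13.5 ± 3.20 FPKM. BAD, which opposes survival proteins, averaged 4.98 ± 0.982 and BCL2L1, which protects cells, 4.68 ± 1.16 FPKM (SD, n = 5). BAX, which forms pores in this membrane, averaged 0.610 ± 0.114 FPKM and BCL2L11 stayed below 1 FPKM. All 5 lay below VDAC3 in every library, as did 82.4% of all other genes. The median log2 ratio over the 3 was 3.64, against 3.37 over all genes. BCL2L1, BAX and BCL2L11 had gaps in their transcript numbering.

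The cytochrome c gene CYCS had the highest RNA level of 3 listed genes tied to the permeability transition of mitochondria. CYCS was at 111.5, 101.8, 152.1, 147.8 and 127.4 FPKM in libraries 1 to 5, high in the same 2 libraries as VDAC3 but lowest in library 2. VDAC3 was higher than CYCS in libraries 3 and 4 only, with a mean log2 ratio of -0.79 ± 1.35 (SD, n = 5). AIFM1, the apoptosis-inducing flavoprotein, averaged 26.7 ± 2.83 FPKM, and TSPO, a cholesterol-binding protein known to associate with VDAC, averaged 3.72 ± 1.33. TSPO was highest in library 1, at 5.13 FPKM, and lowest in libraries 4 and 3, at 2.22 and 2.50.

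Among genes of calcium transfer from the reticulum, HSPA9 stood closest to VDAC3. HSPA9, a chaperone known to bridge VDAC1 and the inositol trisphosphate receptor, was at 86.5, 84.2, 97.5, 83.6 and 80.2 FPKM in libraries 1 to 5. Its range was 1.22-fold, so VDAC3 was the higher gene in libraries 3 and 4 and the lower in the rest. MICU2 and MICU3, regulators of the calcium uniporter, averaged 30.3 ± 5.03 and 16.0 ± 4.45 FPKM, and MFN2, a fusion protein at reticulum contacts, 27.2 ± 13.8 FPKM (SD, n = 5). Of 13 listed members 10 lay below VDAC3 in every library and none above, beside 82.4% and 1.12% of all other genes. Over the 11 that averaged 1 FPKM the median log2 ratio was 2.72, against 3.37 over all genes. None of the 11 had an SD of 1 or more, beside 3.62% of all other detected genes, and their median SD was 0.24.

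Other outer membrane genes were intermediate. MFN1, a mitochondrial fusion protein, was steady, at 41.2 ± 1.79 FPKM (SD, n = 5) with a log2 SD of 0.06. CISD1, an iron-sulfur protein, averaged 42.3 ± 6.90 and CPT1B, the muscle gate for fatty acid entry, 36.2 ± 5.07 FPKM. VDAC3 was above these 3 in 4 animals and below them in library 1. ACSL1, which activates fatty acids and is known to bind at the outer membrane with VDAC and CPT1, was at 24.6, 9.06, 40.0, 101.8 and 70.1 FPKM in libraries 1 to 5. ACSL1 also varied widely, with a log2 SD of 1.31, but its lowest library was 2, and VDAC3 was the higher gene in 3 animals. Of 14 listed members 8 lay below VDAC3 in every library, beside 82.4% of all other genes. Over the 13 that averaged 1 FPKM the median log2 ratio was 3.14, against 3.37 over all genes. In this list 2 of the 13, ACSL1 and SYNJ2BP, had an SD of at least 1, beside 3.62% of all other detected genes. SYNJ2BP was at 0.342 FPKM in library 3 and 5.89 to 6.93 in the others.

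Genes for the removal of damaged mitochondria differed in level. SQSTM1, a receptor of selective autophagy, averaged 198.5 ± 41.1 FPKM (SD, n = 5) and exceeded VDAC3 in 4 animals, with VDAC3 higher in library 3. TBK1, a kinase of this route, averaged 8.59 ± 0.404 FPKM. Transcription factors of mitochondrial genes were lower than SQSTM1, though not all lower than TBK1. ESRRA averaged 24.5 ± 7.29, TFAM 4.57 ± 1.74 and NRF1 2.46 ± 0.560 FPKM. GABPA was at 0.125 FPKM in library 2 and at 12.04 to 13.03 in the other 4.

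**Figure D3:**
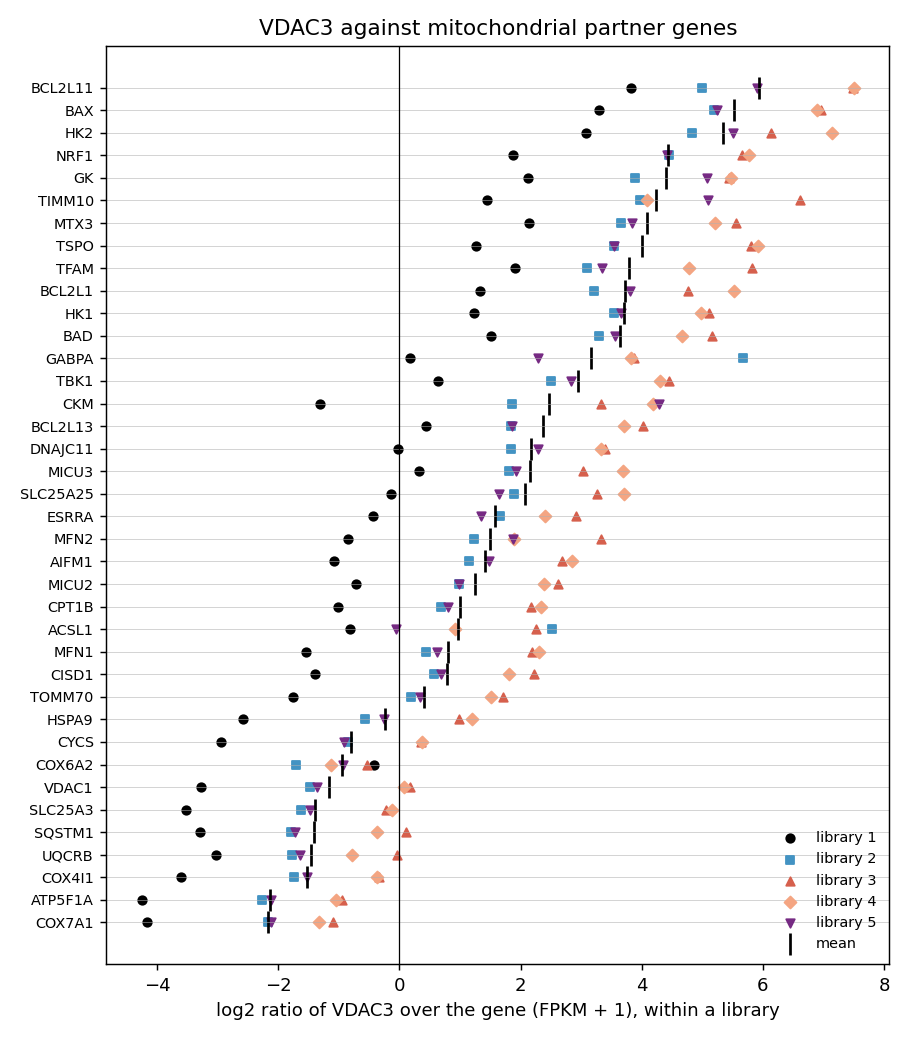
Each row is a partner gene and each symbol the log2 ratio of VDAC3 over it within 1 library, with a bar at the mean, ordered by mean. Library 1 (black) has the lowest ratio for every gene shown except COX6A2, whose 5 ratios lie closest together, with an SD of 0.51.

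The respiratory chain and ATP synthase, a main user of the metabolites that VDACs pass, lay close to VDAC3 in mean level. Within libraries the log2 ratio of VDAC3 over a member could be far from 0. In library 1 it was -4.25 for ATP5F1A and -0.42 for COX6A2, and in library 3 -0.95 and -0.54. Of 44 nuclear genes in this list 31 had rows and 29 averaged at least 1 FPKM. Over the 29 the median of the mean levels was 113.1 FPKM and the median log2 ratio of VDAC3 over the member was -0.60, against 3.37 over all genes. VDAC3 lay below 6 members in every library, namely COX7A1, ATP5F1A, COX4I1, UQCRB, COX6A2 and SDHB, and above SDHC and NDUFA10, both under 1 FPKM. The other 23 changed sides. Of all other genes, 1.12% lay above VDAC3 in every library and 82.4% below it.

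Some of these genes shared the order of VDAC3 over the libraries, with smaller differences. VDAC3 was lowest in library 1 and highest in libraries 3 and 4, an order shared by 393 of the other 6135 genes (6.41%) and by 11 of the 29 respiratory members. With each library scaled to the same total FPKM this order was shared by 241 genes (3.93%) and 9 of 29. The 11 were COX4I1, COX6A2, SDHB, COX7B, ATP5PO, NDUFV2, UQCRC1, NDUFS1, NDUFB5, COX6B1 and ATP5MC2. As deposited, library 1 was the lowest for 15 of the 29. This count was not set beside all genes or repeated after scaling, so it cannot be read as a trait of these members. Library 1 also had the smallest summed FPKM, at 193706 beside 204180 to 223251 in the others. VDAC3 deviated from its own mean by -2.33, -0.36, 1.41, 1.40 and -0.11 in libraries 1 to 5, and the median deviation of the 29 members was -0.24, -0.22, 0.20, 0.31 and 0.01. With the same total FPKM in each library that median was -0.15, -0.20, 0.19, 0.21 and 0.02, so that library 2 was the lowest in place of library 1. Apart from COX6A2, the member with the widest range was UQCRB, a subunit of complex III, at 2.80-fold, beside 14.2-fold for VDAC3. The respiratory genes were known to move together in these libraries when the list was drawn up.

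Summed fibroblast, smooth muscle and pericyte genes did not follow this order. Summed fibroblast genes were highest in libraries 1 and 4, at 845 and 769 FPKM, where VDAC3 had its lowest value and one of its highest. Summed smooth muscle and pericyte genes were highest in library 1, at 88.7 FPKM, and were 46.0, 70.1, 59.6 and 36.5 FPKM in libraries 2 to 5. Their part in the VDAC3 values was not tested. Summed fibre markers were 23087, 23578, 25264, 26215 and 24654 FPKM in libraries 1 to 5. Of the 11 genes 2 were ordered as VDAC3 was, beside 6.41% of all other detected genes. As a share of the summed FPKM of each library, a setting added after seeing the data, the fibre markers were 11.9%, 11.5%, 12.1%, 11.7% and 11.98%, lowest in library 2.

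**Figure D4:**
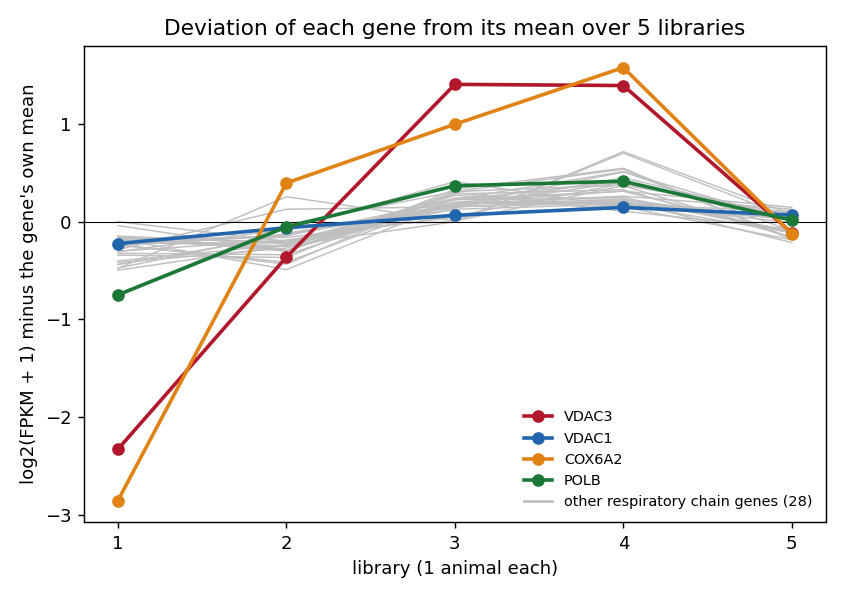
Lines join the deviations of log2(FPKM + 1) from a gene's own mean in each of 5 libraries, for VDAC3, VDAC1, COX6A2, POLB and 28 other respiratory chain genes (grey). VDAC3 goes down to -2.33 in library 1 and up to 1.41 in library 3, while the median of the 29 respiratory genes stays between -0.24 and 0.31.

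COX6A2 was the gene most like VDAC3 in the main search, though not under every setting. Likeness was measured as the root mean square difference between deviations from a gene's own mean over 5 libraries, among 4628 other genes with a symbol and at least 1 FPKM in every library. COX6A2 was at 18.6, 185.9, 282.6, 423.1 and 129.4 FPKM in libraries 1 to 5, at a distance of 0.459 log2 units, where the median gene stood at 1.37. Both genes were far down in library 1 and high in libraries 3 and 4, but COX6A2 was above its mean in library 2 and VDAC3 below. VDAC3 was lower than COX6A2 in 5 of 5 animals, with a log2 ratio of -0.95 ± 0.51 (SD, n = 5). VDAC1 stood at 1.26, in place 956. The measure keeps the size of differences, so a gene of little spread lies far from VDAC3 whatever its order. The median of 1.37 is thus set largely by the spread of VDAC3 itself.

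The next genes were less abundant and shared chiefly the low value in library 1. SERBP1, an RNA-binding protein gene, was at 10.01 FPKM in library 1 and 44.1 to 84.1 in the rest, at a distance of 0.637. TRPC4AP, an adaptor of a ubiquitin ligase, was at 2.09 FPKM in library 1 and 16.8 to 21.3 elsewhere, at 0.653. ROMO1, an inner membrane protein of mitochondria, was at 2.99, 7.85, 13.7, 17.0 and 12.3 FPKM in libraries 1 to 5, at 0.682. DPP9, SELENOO, ABT1, SLC35A1, TMEM120B and HIST1H2AC completed the 10, at 0.711 to 0.778. HIST1H2AC belongs to a family of near-identical histone genes, so its reads may be shared. SELENOO, a mitochondrial selenoprotein, had its highest level in library 3, at 11.7 FPKM, and ABT1, a nuclear protein of basal transcription, was high in libraries 3 and 4, at 9.88 and 9.34.

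This set depended on the size of the differences. Without library 1 the nearest gene was FASTK and 1 of the 10 was again among the nearest 10. The nearest was THAP7 without library 3, SERBP1 without library 4 and TRPT1 with no detection limit. When each profile was also divided by its own SD, none of the 10 was kept, and the nearest were LSM8, a splicing protein gene, AGPAT5, a lipid synthesis enzyme, and SREBF1, the regulator of lipid synthesis, with POLB in place 4. LSM8 was at 24.0, 30.7, 37.0, 37.3 and 31.8 FPKM in libraries 1 to 5, the same order as POLB, but over a far narrower range than VDAC3.

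POLB is the nearest listed gene on the lower side of VDAC3, with 20.2 kb between them in the table's coordinates, on chromosome 27 from 37192520 to 37217387. Its level was 8.49, 14.4, 19.6, 20.3 and 15.1 FPKM in libraries 1 to 5, so that both genes were ordered alike except for libraries 3 and 4, with a range of 14.2-fold for VDAC3 and 2.39-fold for POLB.

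The other neighbours within 500 kb did not share this order. SLC20A2, a phosphate transporter gene 6.85 kb away on the other side, stayed at 0.530 FPKM or below, and IKBKB, a kinase of the NF-kappa-B route, at 0.159 or below with 0 listed in library 5. FNTA, a subunit of farnesyltransferase, stayed at 0.136 FPKM or below. SMIM19, a small membrane protein gene, was at 27.0, 18.0, 24.1, 10.4 and 25.8 FPKM in libraries 1 to 5, highest where VDAC3 was lowest. HOOK3, a microtubule adaptor, averaged 52.3 ± 5.12, KAT6A, a histone acetyltransferase, 12.5 ± 1.75 and RNF170, a ubiquitin ligase, 3.36 ± 0.438 FPKM (SD, n = 5), with log2 SDs of 0.14, 0.20 and 0.14. Of the 8 neighbours, POLB alone was lowest in library 1 and highest in libraries 3 and 4. That order was shared by 6.41% of all other detected genes. SLC20A2 was also highest in libraries 3 and 4, at 0.530 and 0.495 FPKM, but lowest in library 5, at 0.053. SLC20A2, IKBKB and FNTA averaged under 1 FPKM, where an order over libraries says little.

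**Figure D5:**
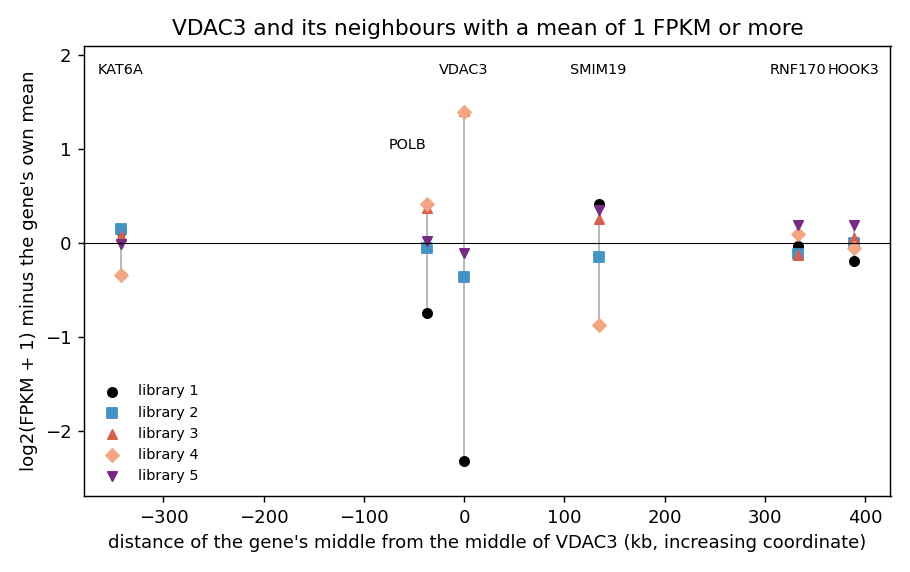
Symbols give the deviation of log2(FPKM + 1) from a gene's own mean in each of 5 libraries, against the distance of the gene's middle from that of VDAC3 in kb, for neighbours that averaged at least 1 FPKM. VDAC3 spans -2.33 to 1.41, POLB is next on the left, and KAT6A, RNF170 and HOOK3 vary little.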

How the data were processed

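Total RNA of longissimus dorsi was made into libraries with a commercial kit, per the labels' protocols. The authors deposited FPKM values per transcript, per the file headers. DESeq2 1.10.1, HTSeq 0.6.0 and the build UMD3.1 stand in the submitters' processing notes, with no role given; aligner, FPKM program and annotation are not given in the sources used here. Depth is unknown, so no counting interval was computed.

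Transcript FPKM were summed per gene with Python 3.11.15, numpy 2.4.6 and pandas 2.3.3, and analysed as log2(FPKM + 1), which understates differences of low genes. A mean of 1 FPKM was the detection limit. No test was run: the 5 libraries formed 1 group, and the members, the 18 gene lists and the partners were chosen with earlier results of these data known. Of 199 list entries 121 had rows. From each list other than the cell type markers the 4 most abundant members and the most variable one were named, with all neighbours within 500 kb that have a symbol and the 10 genes most like VDAC3; CIDEC, HBB, SAMM50, SYNJ2BP, SDHC, NDUFA10, MB, the members counted as ordered like VDAC3, and genes nearest under other settings were named after their values were seen. Of the genes this rule takes, 1 is not reported here. The likeness search was tested on simulated data. Alternatives were 2 scalings, a pseudocount of 0.1, other limits (none, 5 FPKM), scaled profiles, single transcripts and leaving out each library. No column was left unmapped.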

Additional observations from a re-analysis of the deposited data

Results flagged for a closer look

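For the 56 genes named by rule, the gap to the nearest value was divided by the whole range on the log2(FPKM + 1) scale. With 0.71 as the limit for 5 libraries, 5 of the 56 had 1 library far from the other 4. Chance flags about 1 in 20 genes that were not picked by their values. Some of the 56 were picked as most variable or most like VDAC3, so the 5 cannot be set against that rate. Neither VDAC3, with a gap ratio of 0.526, nor VDAC1, with 0.436, was among the 5. Library 1 was thus low for VDAC3 without standing clear of an otherwise tight group. TRPC4AP was at 2.09 FPKM in library 1 and 16.8 to 21.3 in the others. TMEM120B was at 2.52 FPKM in library 1 and 8.56 to 12.9 in the others. GABPA was at 0.125 FPKM in library 2 and 12.04 to 13.03 in the others. BCL2L11 reached 0.797 FPKM in library 2 and no more than 0.141 in the others. CISD1 was at 54.2 FPKM in library 4 and 37.4 to 41.5 in the others. Genes named only after their values were seen were not among the 56. Of these SYNJ2BP had a gap ratio of 0.921, at 0.342 FPKM in library 3 and 5.89 to 6.93 in the others.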

How the results depend on the processing

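The mean of VDAC3, its count of partners below it in every library and its log2 ratio over VDAC1 moved by less than their limits (1 SD, or 1.5 times for the count) under 9 alternatives each. The SD was that between libraries, 83.5 FPKM for the mean and 1.41 for the ratio. Limits this wide are seldom passed, so staying within them says little. With libraries left out in turn the mean ran from 82.5 to 127.7 FPKM, the count from 41 to 59 and the ratio from -1.50 to -0.64. The SD of VDAC3 ran from 0.95 without library 1 to 1.78 without library 5, and the range of its level was 13.2-fold with a fixed total and 13.8-fold with median-ratio size factors. The 10 genes most like VDAC3 depended most on the settings: 4 were kept with no detection limit, 2 with a limit of 5 FPKM, 0 with profiles divided by their SD, and 1 to 9 with a library left out, the lowest without library 1. The respiratory members ordered like VDAC3 numbered 9 of 29 to 11 of 29 under both scalings and 10 of 28 without COX6A2; these alternatives were chosen after seeing the data. Transcript shares of VDAC3 had no alternative, because 1 transcript is listed. No paired analysis was possible because all libraries form 1 group. With no repeat library of any animal, the animal and its library preparation cannot be told apart, and unknown depth limits what low values show.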
